A study of Mus musculus with 6 samples.

Results

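A set of 10 genes that mark or regulate haematopoietic stem and progenitor cells was followed across 6 single-cell libraries of leukaemic mouse bone marrow. It holds 4 cell surface receptors and antigens (Cd34, Kit, Flt3 and Adgrg1), a secreted ligand (Angpt1) and 5 transcription factors (Gata2, Hlf, Sox4, Mecom and Mef2c). The genes were taken by symbol, and all 10 were found in each matrix, among 31053 features in the MA9 libraries and 32285 in the HM libraries. MA9 stands for leukaemia driven by the MLL-AF9 fusion and HM for leukaemia driven by Hoxa9 and Meis1. The 4 MA9 libraries are labelled Shp-1 f/f or Shp-1 Δ/Δ, each with PBS or with Arac+Dox, which the titles call chemo. Both HM libraries are titled Shp-1 f/f, 1 with PBS and 1 with Arac+Dox. Shp-1 is the tyrosine phosphatase encoded by Ptpn6. The f/f label denotes a floxed allele and the Δ/Δ label its deleted form, and the genotype label of the HM libraries names no Shp-1 allele. The Cre driver, the deleted exons, the doses, the time of treatment and the age of the mice are not given in the sources used here. According to the protocol in the labels, leukaemic mice were made by introducing the fusion gene into mouse embryonic stem cells. Flushed whole marrow was sequenced, so a library can hold leukaemic cells and the cells of the host. How many mice went into a library is not stated.

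Each group held 1 library, so no difference between groups could be set against a spread between replicates, and groups were not tested against each other. Levels are UMIs scaled to 1e6 per library (CPM) and summed over cells that had 500 or more genes detected and 10% or fewer mitochondrial UMIs. Kept cells numbered from 2755 to 9750 per library, holding from 15111411 to 103581646 UMIs, with a median of 4021 to 10112.5 UMIs per cell. The HM PBS library stood apart, since 74.7% of its barcodes exceeded the mitochondrial limit and 22.1% were kept, against 87.2% to 94.8% in the other 5 libraries. Pairs of libraries shared from 0 to 27 cell barcodes, at most 0.313% of the smaller library. Ptpn6, which should check the genotype labels, was at 186 CPM in MA9 cells with the label f/f PBS and at 172 in that labelled Δ/Δ PBS. It was at 57.7 CPM in the one labelled f/f Arac+Dox and at 43.6 in the one labelled Δ/Δ Arac+Dox. Its level therefore separated the PBS libraries from the Arac+Dox libraries and not the 2 genotype labels. Reads outside deleted exons would not be lost from a 3′ count, and which exons were deleted is unknown, so the libraries are named below only as they are labelled. Every direction drawn between them rests on those labels. Meis1, named in the HM label, was at 2.18 and 2.47 CPM in the HM libraries and at 78.1 to 145.9 CPM in MA9, and Hoxa9 was at 12.2 and 7.32 CPM in HM and at 172 to 209 CPM in MA9. A transgene without the native 3′ end would not be counted, and whether that holds here is unknown. As a check of the marrow label, neutrophil markers summed to 17238 to 285125 CPM, and B cell and erythroid markers were at 9.53 to 165 and 13.6 to 438 CPM.

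In normal marrow CD34 is a sialomucin of stem and progenitor cells and of endothelium. Kit is the receptor of stem cell factor, and Flt3 is a receptor tyrosine kinase of multipotent, lymphoid and dendritic progenitors. Adgrg1, also called GPR56, is an adhesion G protein-coupled receptor found on stem cells and on leukaemia-initiating cells, and Angpt1 is the ligand of the Tie2 receptor. Gata2, Hlf and Mecom encode transcription factors needed for stem cell maintenance, Sox4 encodes an HMG-box factor of early B cell and myeloid progenitors, and Mef2c encodes a MADS-box factor of lymphoid and myeloid cells. Mecom and Mef2c are known to be raised by MLL fusions. Kit is also carried by mast cells and early granulocyte precursors, and Gata2 is strongly expressed by mast cells and basophils.

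The genes lie apart from each other in the genome (GENCODE vM21, GRCm38). Cd34 is at chr1:194938819-194961279 on the plus strand, Kit at chr5:75574916-75656722 on the plus strand and Flt3 at chr5:147330741-147400489 on the minus strand. Adgrg1 is at chr8:94974751-95014217 on the plus strand and Angpt1 at chr15:42424723-42676977 on the minus strand. Gata2 is at chr6:88193891-88207032 on the plus strand, Hlf at chr11:90336536-90390895 on the minus strand and Sox4 at chr13:28948919-28953713 on the minus strand. Mecom is at chr3:29951296-30548008 on the minus strand and Mef2c at chr13:83504034-83667080 on the plus strand. Kit and Flt3, and Sox4 and Mef2c, share a chromosome but are not neighbours.

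The promoters of 4 genes that were all higher in the MA9 library labelled Δ/Δ PBS and lower with Arac+Dox under the Δ/Δ label, as described below, are shown as the 250 bases before the start site, from the RefSeq table of GRCm38.p6, in the direction of transcription. Capitals mark GGGCGG, the core of the SP1 motif, on either strand. Cd34 is chr1:194938571-194938820, Flt3 is the minus strand of chr5:147400490-147400739, Gata2 is the first of its 2 listed starts, chr6:88193641-88193890, and Hlf is the minus strand of chr11:90390918-90391167.
Cd34: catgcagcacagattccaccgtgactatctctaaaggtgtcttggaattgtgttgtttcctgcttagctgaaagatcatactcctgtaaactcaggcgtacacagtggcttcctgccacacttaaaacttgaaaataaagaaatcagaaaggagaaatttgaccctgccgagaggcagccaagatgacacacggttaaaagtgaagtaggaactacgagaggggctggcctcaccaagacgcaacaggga
Flt3: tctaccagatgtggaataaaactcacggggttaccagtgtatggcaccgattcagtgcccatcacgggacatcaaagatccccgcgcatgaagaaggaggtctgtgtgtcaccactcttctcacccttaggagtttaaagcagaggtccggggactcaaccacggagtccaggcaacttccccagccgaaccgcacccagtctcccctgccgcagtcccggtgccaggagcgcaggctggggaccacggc
Gata2: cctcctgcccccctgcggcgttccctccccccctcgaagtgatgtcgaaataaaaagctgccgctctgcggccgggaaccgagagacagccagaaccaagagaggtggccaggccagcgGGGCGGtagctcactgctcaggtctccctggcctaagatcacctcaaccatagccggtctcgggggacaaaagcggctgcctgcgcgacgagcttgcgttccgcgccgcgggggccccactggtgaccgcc
Hlf: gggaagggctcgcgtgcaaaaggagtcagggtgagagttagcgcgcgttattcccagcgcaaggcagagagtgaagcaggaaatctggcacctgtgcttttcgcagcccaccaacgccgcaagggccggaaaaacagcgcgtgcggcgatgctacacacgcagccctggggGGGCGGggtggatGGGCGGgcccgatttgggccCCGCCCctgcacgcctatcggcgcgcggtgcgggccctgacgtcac

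These windows differ in base composition: 46.4% G and C in Cd34, 59.2% in Flt3 and 67.2% in both Gata2 and Hlf. GGGCGG occurred once in the Gata2 window shown and 3 times in Hlf, and it was not among the letters of the Cd34 and Flt3 windows. RefSeq entries were found for 9 of the 10 genes, with 15 start sites among them. Angpt1 is named only. GGGCGG was found in 7 of these 15 windows, upstream of 5 of the 9 genes, and 32.7% of 32841 mouse windows of this length hold it. The 2 windows of Kit overlap almost wholly and hold the same GGGCGG site, which is counted in both. AGATAA or TGATAA, the GATA motif, was found in 1 of the 15 windows, upstream of Mecom, against 16.6% of all windows. CAGCTG, an E-box, was found in 1 of the 15, upstream of Sox4, against 13%. TGTGGT (RUNX, 14.0% of windows), CCGGAAG (ETS, 6.91%) and the MEF2 motif (0.244%) were in none of these windows. Both strands were searched, and no match of one motif overlapped a match of another in the windows of these genes. None of the 6 motifs searched was in all 4 windows.

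Levels are given in the order MA9 f/f PBS, MA9 Δ/Δ PBS, MA9 f/f Arac+Dox, MA9 Δ/Δ Arac+Dox, HM PBS and HM Arac+Dox, as labelled, and are compared within a gene only. Cd34 was at 31.9, 102, 5.33, 19.3, 4.24 and 24.8 CPM. Flt3 was at 14.7, 68.8, 3.78, 19.7, 3.04 and 8.06 CPM. Adgrg1 was at 8.07, 30.3, 2.83, 7.65, 1.72 and 20.03 CPM. All 3 were highest in the MA9 library labelled Δ/Δ PBS and lowest in that labelled HM PBS, with 17.6 to 24.1-fold between those 2 libraries. The neighbours in the order whose 95% counting intervals overlapped were those lowest for each gene, MA9 f/f Arac+Dox and HM PBS, and, for Adgrg1, MA9 f/f PBS and MA9 Δ/Δ Arac+Dox.

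Kit was at 39.4, 37.8, 22.6, 17.6, 9.79 and 7.09 CPM. Its order was unlike that of the other surface genes: the 2 PBS MA9 libraries overlapped, both Arac+Dox MA9 libraries followed, and both HM libraries were lowest. The whole range of Kit over the 4 MA9 libraries was 2.23-fold, against 10.7-fold for Adgrg1, 18.2-fold for Flt3 and 19.1-fold for Cd34. The ligand Angpt1 was at 12.5, 46.4, 1.73, 4.16, 0.596 and 5.33 CPM, with no neighbours overlapping and a range of 77.9-fold over all 6 libraries. Its level in HM PBS rested on 9 UMIs.

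Among the transcription factors, Gata2 was at 8.53, 29.5, 2.01, 6.35, 0.463 and 15.7 CPM, the HM PBS value resting on 7 UMIs. Sox4 was at 23.6, 165, 8.24, 60.5, 11.4 and 22.8 CPM. Hlf, the least counted of the 3, was at 2.56, 7.47, 0.928, 0.724, 1.65 and 2.69 CPM. All 3 peaked in the MA9 library labelled Δ/Δ PBS. For Hlf the remaining 5 libraries formed a run in which each neighbour overlapped the next, and for Sox4 MA9 f/f PBS and HM Arac+Dox overlapped.

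Mecom and Mef2c separated the 2 leukaemia models instead. Mecom was at 41.2, 84.3, 77.1 and 71.5 CPM in the MA9 libraries, against 0.0662 CPM in HM PBS, which is 1 UMI, and 0.835 in HM Arac+Dox, which is 44 UMIs. Mef2c was at 542, 988, 639 and 710 CPM in MA9 and at 44.1 and 69.7 in HM. For both genes every MA9 library was above both HM libraries, and the range within MA9 was 2.05-fold for Mecom and 1.82-fold for Mef2c. Both genes were again highest in the MA9 library labelled Δ/Δ PBS, so that 9 of the 10 genes peaked among MA9 libraries there and Kit alone did not.

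**Figure D1:**
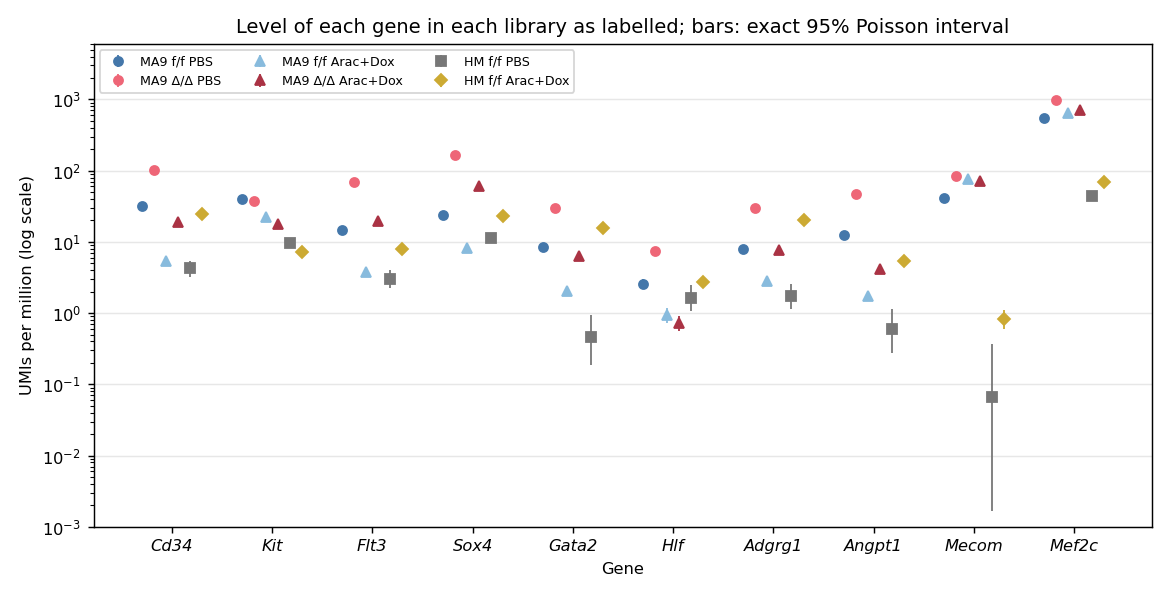
Levels of the 10 genes (horizontal axis) in CPM on a log scale (vertical axis) in the 6 libraries as labelled, 1 point per library with exact 95% Poisson intervals for counting error. Cd34, Flt3, Sox4, Gata2, Hlf, Adgrg1 and Angpt1 spread over more than 10-fold among the MA9 libraries, Kit, Mecom and Mef2c over 2.23-fold or less, and Mecom is near 0 in HM.

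With PBS, the library labelled Δ/Δ was compared with that labelled f/f among the 9406 genes that reached 5 CPM in 1 or both of them. Genes past 2-fold are counted by size alone, with no test behind the count. A gene under 5 CPM in 1 library of a pair enters through the other only, so it can be counted in 1 direction only. In this pair that holds for Hlf. Of the 10 genes, 8 were at least 2-fold higher and 0 were lower, where 5.32% of all genes were higher and 3.93% lower. Sox4 was 6.98-fold higher (log2 ratio 2.80, interval 2.73 to 2.88) and Flt3 4.68-fold (2.23, 2.13 to 2.33). Adgrg1, Angpt1, Gata2 and Cd34 had log2 ratios of 1.91, 1.89, 1.79 and 1.67. Hlf was at 1.55 (1.30 to 1.80) and Mecom at 1.03 (0.97 to 1.10), so the interval of Mecom reached below 2-fold. Mef2c, at 0.86, and Kit, at -0.06 (-0.13 to 0.01), did not reach 2-fold. The median over the 10 genes was 1.73, against 0.15 over all genes. Median-of-ratios scaling moves every log2 ratio of this comparison by -0.16, which puts Mecom at 0.88, under 2-fold, and keeps the other 7 above it. Mecom was also under 2-fold, at 0.95, when scaled without mitochondrial, ribosomal, haemoglobin and granule genes, and at 0.99 with each cell given the same weight.

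The corresponding Arac+Dox pair shares no library with the PBS pair. There 8 of the 10 genes reached 5 CPM in either library, and 5 of these 8 were at least 2-fold above f/f in the Δ/Δ library, where 6.58% of 9306 genes were higher and 4.81% lower. They were Sox4 (log2 ratio 2.88), Flt3 (2.38), Cd34 (1.85), Gata2 (1.66) and Adgrg1 (1.43). These are 5 of the 8 genes that were higher in the PBS pair. Flt3, Gata2 and Adgrg1 reached 5 CPM in the Δ/Δ library only. Angpt1 had a ratio of 1.26 but reached only 4.16 CPM and was not counted. Hlf, which was also under 5 CPM, had a ratio of -0.36 with an interval from -0.84 to 0.12. Mecom (-0.11), Mef2c (0.15) and Kit (-0.36) stayed near 1-fold.

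Markers of another cell type moved with both of these pairs. The 7 secondary granule genes, among them Camp, Ngp and Ltf of maturing neutrophils, summed to 34295 and 32928 CPM in the libraries labelled f/f PBS and f/f Arac+Dox, against 3183 and 3326 CPM in those labelled Δ/Δ. All 7 were at least 2-fold lower in the Δ/Δ library of both pairs, with median log2 ratios of -2.99 and -2.77. Stroma markers, 6 genes that include Col1a1, Col1a2 and Cxcl12, summed to 4.83 and 7.86 CPM in the f/f libraries and to 112 and 38.1 CPM in the Δ/Δ libraries. T cell markers summed to 23.6 and 76.1 CPM in the PBS libraries labelled f/f and Δ/Δ and B cell markers to 62.9 and 165 CPM. The part of these cells in the differences between summed libraries was not tested, and the levels within clusters are given below. A sum over a library cannot tell more cells of a type from more UMIs of a gene per cell.

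**Figure D2:**
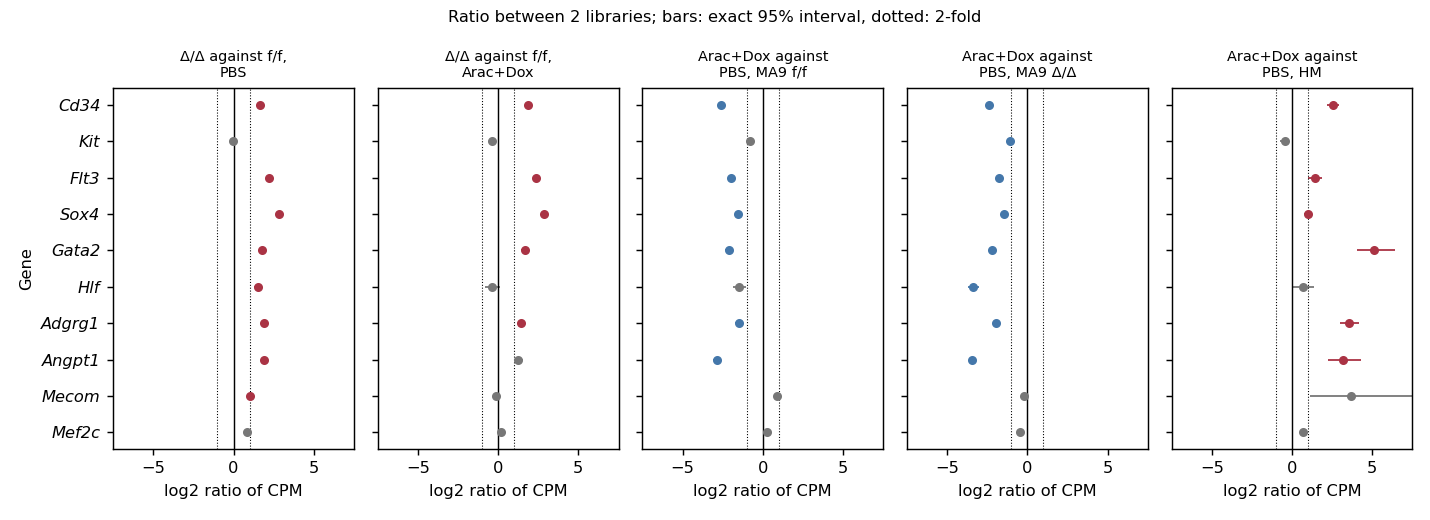
Log2 ratio of CPM for the 10 genes in the 5 comparisons, with exact 95% intervals for counting error. Dotted lines mark 2-fold, red and blue points were counted as higher and lower, and grey points were not counted or were under 5 CPM in both libraries. The points for Cd34, Flt3, Sox4, Gata2 and Adgrg1 lie right of the line in both Δ/Δ comparisons, left of it in both MA9 treatment comparisons and right of it in HM.

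Arac+Dox was compared with PBS within each label. In the libraries labelled f/f, 6 of 9 measured genes were at least 2-fold lower with Arac+Dox and 0 were higher, where 1.48% of 9099 genes were lower and 0.692% higher. They were Angpt1 (log2 ratio -2.85), Cd34 (-2.58), Gata2 (-2.08), Flt3 (-1.96), Sox4 (-1.52) and Adgrg1 (-1.51). Kit was at -0.80, while Mecom was at 0.90 and Mef2c at 0.24. Hlf was also lower, at -1.46 (-1.87 to -1.06), but was under 5 CPM in both libraries and was not counted. Flt3, Gata2, Adgrg1 and Angpt1 reached 5 CPM in f/f PBS only. In the libraries labelled Δ/Δ, 8 of 10 were lower and 0 higher, where 2.3% of 9341 genes were lower and 1.26% higher. These 8 were the same 6 genes together with Hlf and Kit: Angpt1 (-3.48), Hlf (-3.37), Cd34 (-2.40), Gata2 (-2.22), Adgrg1 (-1.99), Flt3 (-1.80), Sox4 (-1.45) and Kit (-1.10). Hlf and Angpt1 reached 5 CPM in Δ/Δ PBS only. The medians over the measured genes were -1.52 under f/f and -1.89 under Δ/Δ, against 0.03 and -0.07 over all genes. The 2 treatment pairs share no library with each other, but each shares its libraries with the genotype pairs above, and Ptpn6 itself was lower with Arac+Dox in both (-1.69 and -1.98). Markers of other cells moved with these pairs. Eosinophil markers summed to 24.0 CPM in f/f PBS and 4.79 in f/f Arac+Dox, with 4 of 5 genes lower, and to 57.0 and 6.28 CPM under the Δ/Δ label, with 5 of 5 lower. Mast cell and basophil markers summed to 57.0 and 29.3 CPM under f/f, with 6 of 8 lower, and to 104.7 and 47.2 under Δ/Δ, with 5 of 8 lower. Cpa3 of that list, which also led the MA9 cluster 5 described below, went from 17.2 to 1.97 CPM and from 66.8 to 0.830 CPM. Under the Δ/Δ label Cpa3 alone fell by more than the whole list, so the rest of the list together was higher with Arac+Dox. Stroma markers were lower with Arac+Dox under the Δ/Δ label only, and promyelocyte markers were higher under both, from 9045 to 12235 and from 11736 to 19961 CPM. The part of these cells in the treatment ratios was not tested.

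In HM the direction was the other way. Among 8748 genes, 6 of the 8 measured were at least 2-fold higher with Arac+Dox and 0 were lower, where 13.5% of genes were higher and 9.85% lower. Of these 6, Cd34, Flt3, Gata2, Adgrg1 and Angpt1 were under 5 CPM in HM PBS. They entered the count through HM Arac+Dox only and could not have been counted as lower. Gata2 had a log2 ratio of 5.09 (4.04 to 6.40), Adgrg1 3.54, Angpt1 3.16, Cd34 2.55, Flt3 1.41 and Sox4 1.0 (0.77 to 1.24). Kit was at -0.47 and Mef2c at 0.66, and Hlf (0.70) and Mecom (3.66, interval 1.10 to 8.99) were under 5 CPM in both libraries. These values changed with the cell filter, which kept 22.1% of the HM PBS barcodes. With all deposited barcodes kept, mitochondria-rich ones included, Sox4 was at -1.39 and Flt3 at -0.41, so their direction turned, while Cd34, Gata2, Adgrg1 and Angpt1 stayed higher at 1.86, 3.36, 2.93 and 2.83. Mast cell and basophil markers moved with this pair: 7 of the 8 genes of the list were higher, from 0 to 1.59 CPM in HM PBS to 1.06 to 366 CPM in HM Arac+Dox, with Hdc the exception at 349 and 193 CPM. Without the 94 cells of the mast cell and basophil-like cluster, Gata2 fell from 5.09 to 3.25, and the number of genes counted as higher went from 6 to 3 because Gata2 and Angpt1 no longer reached 5 CPM and Sox4 went to 0.97. Sox4 was also under 2-fold, and so not counted, under each of the 3 other scalings, at 0.94, 0.99 and, with each cell given the same weight, 0.65.

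The share of cells with at least 1 UMI was taken after each cell was thinned to 2000 UMIs, which left out from 366 to 1627 shallower cells per library. Cd34 was found in 5.53%, 18.3%, 0.962%, 3.95%, 0.502% and 1.77% of cells, in the library order used above, and Flt3 in 3.33%, 14.6%, 0.871%, 6.08%, 0.460% and 0.908%. Sox4 was found in 3.47%, 23.7%, 1.38%, 12.2%, 1.80% and 2.54%. Unthinned, Cd34 was found in 12.1%, 34.8%, 2.29%, 10.7%, 1.60% and 7.42%. Of the 10 genes, 9 had their highest share among MA9 libraries in the one labelled Δ/Δ PBS, Kit by a small margin (6.50% against 6.35% in f/f PBS). The exception was Mecom, with 7.67%, 15.6%, 14.4% and 15.7% in MA9, where the libraries labelled Δ/Δ were within 1 percentage point of each other. Mef2c was in 58.7% to 78.2% of MA9 cells and in 5.73% and 8.59% of HM cells.

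Free RNA in droplets gives UMIs to cells that do not express a gene, so the same shares were taken in cells with T cell genes, which do not normally express most of these genes. Those cells had median depths of 2633 to 5790 UMIs before thinning, against 4049.5 to 10310 in the rest. In the MA9 library labelled Δ/Δ PBS, Cd34 was found in 5 of 260 such cells (1.92%), Flt3 in 2 (0.769%), Kit in 2 (0.769%), Angpt1 in 1 (0.385%) and Sox4 in 11 (4.23%), all below the shares in that library. In HM Arac+Dox the T cell shares of Flt3 (0.912%), Hlf (1.03%), Angpt1 (0.342%) and Mecom (0.114%) were at or above the shares over all cells, which were 0.908%, 0.629%, 0.303% and 0.0466%. Sox4, at 2.51% of T cells, was level with its 2.54%. At this depth those library-wide shares in HM could not be told from background. The unthinned UMIs were spread unevenly over the HM clusters described below. Cluster 11 held 91.1% of Mecom, 66.9% of Angpt1, 45.1% of Sox4 and 32.9% of Hlf UMIs, and Flt3 had 43.7% in cluster 5 and 35.5% in cluster 11. In the libraries labelled MA9 f/f Arac+Dox and HM PBS only 34 and 30 T cells were left. A count of 0 there allows up to 10.3% and 11.6% by the exact binomial interval, so small shares cannot be told from background. In MA9 f/f PBS a count of 0 among 54 T cells allows up to 6.60%, above the shares of Kit, Flt3, Sox4, Gata2, Hlf, Adgrg1 and Angpt1. For Cd34, 1 of 54 allows up to 9.89%, above 5.53%. In MA9 Δ/Δ Arac+Dox 0 of 153 allows up to 2.38%, above the shares of Gata2, Hlf, Adgrg1 and Angpt1. Those shares cannot be told from background either.

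Cells of the 4 MA9 libraries were clustered together without the 10 genes, giving 30 clusters. One of them, cluster 5, with 2009 cells, had the highest level of 7 of the 10 genes. Cd34 was at 271 CPM there, Flt3 at 225, Angpt1 at 145, Gata2 at 120, Kit at 70.8, Hlf at 55.1 and Mef2c at 1828. Its leading genes were Cpa3, Npy, Tespa1, Slc22a3 and Auts2. Of 13 stem and progenitor markers 5 (Cd27, Muc13, Ikzf2, Meis1 and Erg) were at least 2-fold higher in it, but none led it, and the mast cell gene Cpa3 did, so it was left unnamed. The library labelled Δ/Δ PBS gave 1353 of its cells, f/f PBS 398, Δ/Δ Arac+Dox 211 and f/f Arac+Dox 47.

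**Figure D3:**
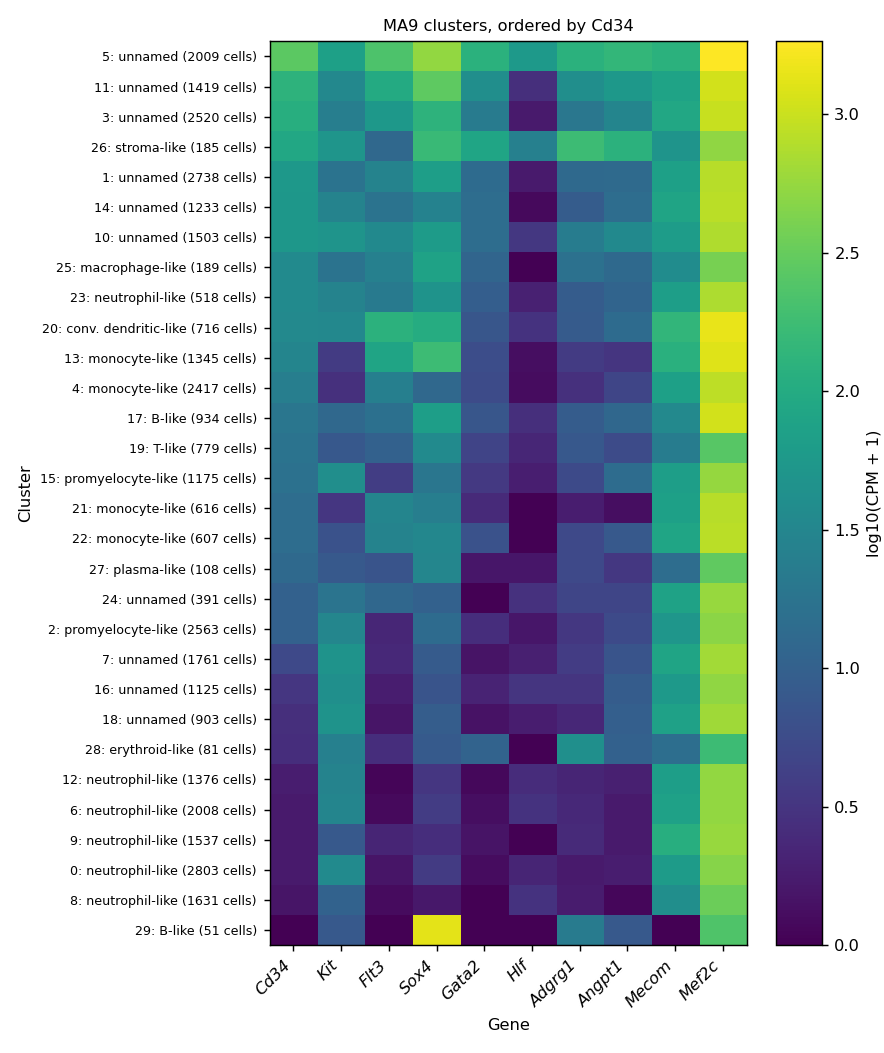
Level of the 10 genes (columns) in the 30 MA9 clusters of at least 50 cells (rows, ordered by Cd34), as log10 of CPM plus 1. Cluster 5 at the top is bright for most genes, Mecom and Mef2c stay bright down to the neutrophil-like clusters, and Kit has a second set of bright rows in the lower part.

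Cluster 5 held unequal parts of each gene. It had 62.3% of all MA9 UMIs of Hlf, 33.3% of Gata2, 31.9% of Adgrg1, 29.1% of Angpt1, 26.4% of Flt3, 26.0% of Sox4 and 22.1% of Cd34. For Kit, Mef2c and Mecom the part was 8.2%, 8.2% and 5.6%. Much of the remaining Cd34, Flt3 and Sox4 lay in the unnamed clusters 3, 11 and 1, with 108.6, 126 and 53.4 CPM of Cd34, whose leading genes included Clec10a and Ccnd1 in cluster 3, Prss34 and Cdc25b in cluster 11, and Prg2 and Fabp5 in cluster 1. Hlf was nearly missing from those clusters, at 0.7, 1.8 and 0.7 CPM. Hlf is thus the gene of the 10 that was most gathered in 1 MA9 cluster.

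Levels were also compared inside cluster 5. Cd34 was at 239 CPM in the cells of the library labelled f/f PBS, 299 in Δ/Δ PBS and 94.5 in Δ/Δ Arac+Dox. Sox4 was at 235, 620 and 634 CPM, and Flt3 at 153, 254 and 154 CPM. Angpt1 was at 111, 161 and 60.5 CPM and Hlf at 35.9, 64.9 and 16.4, while Gata2 was at 98.1, 125 and 107 and Adgrg1 at 97.1, 127 and 126. Within the cluster, then, Sox4 separated the Δ/Δ labels from f/f PBS at 2-fold. It alone of the genes given here was past 2-fold between the PBS libraries. Gata2, Adgrg1 and Flt3 differed by less than 2-fold throughout. Cd34, Angpt1, Hlf and Kit (61.2, 78.8 and 22.7 CPM) were lower in the Arac+Dox library than in both PBS libraries. Mecom ran the other way, at 98.1, 102 and 334 CPM. With 47 cells, the f/f Arac+Dox part of cluster 5 was too small to be given. Taking cluster 5 out of all libraries left 7 of the 8 PBS-pair genes counted. Hlf dropped from 1.55 to 0.26, and Sox4 stayed at 2.84, Flt3 at 2.31 and Cd34 at 1.71. It also ended the count of Kit in the Δ/Δ treatment pair, at -0.94.

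The remaining 3 genes peaked in other MA9 clusters. Adgrg1 was highest, at 173 CPM, in cluster 26, 185 cells with stroma genes (Col1a1, Col1a2, Sparc and Cxcl12) and the platelet genes Pf4 and Ppbp among its 10 leading genes. Angpt1, at 126 CPM, and Gata2, at 82.9, were also high there, and 77 and 78 of its cells came from the Δ/Δ libraries with PBS and with Arac+Dox. Sox4 was highest, at 1349 CPM, in cluster 29, 51 B-like cells with Vpreb3, Ebf1 and Rag1 from the 2 libraries labelled f/f. Cluster 29 held 0.8% of all MA9 Sox4 UMIs. Mecom was highest, at 138 CPM, in cluster 20, 716 conventional dendritic-like cells that also had Flt3 at 124 CPM.

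Mecom and Mef2c were found across MA9 clusters. In the neutrophil-like cells Mecom was at 36.3, 111, 80.9 and 64.1 CPM in the order used above, and Mef2c at 401, 689, 568 and 554 CPM. Cd34 in the same cells was at 4.3, 22.1, 0.9 and 3.8 CPM, of the same order as in T-like cells of the PBS libraries (7.6 and 20.7 CPM). In T-like cells Mecom was at 0, 30.5, 10.8 and 19.0 CPM and Mef2c at 68.7, 308, 144 and 262 CPM, below the neutrophil-like level in all 4 libraries. Mecom and Mef2c in neutrophil-like cells thus lay above the level seen in T-like cells of the same libraries. This did not extend to B-like cells for Mef2c. The B-like cluster 17 (934 cells) had Mef2c at 1087 CPM and Mecom at 33.0, against 334 to 730 and 40.5 to 111 CPM in the neutrophil-like clusters. The smaller B-like cluster 29 (51 cells) had Mef2c at 232 CPM.

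Kit was found in clusters of several kinds besides cluster 5. It was at 49.3 CPM in the stroma-like cluster 26, at 48.5, 46.6, 46.5, 40.5 and 32.8 CPM in the unnamed clusters 10, 7, 18, 16 and 11, at 32.5 CPM in the conventional dendritic-like cluster 20, at 39.3 and 30.1 CPM in the promyelocyte-like clusters 15 and 2, and at 35.3 CPM in the neutrophil-like cluster 0, where Cd34 was at 0.7 CPM. It was at 1.8 to 5.7 CPM in the 4 monocyte-like clusters, where Flt3 was at 24.4 to 78.7 CPM. The promyelocyte-like clusters 2 and 15 held 14.2% and 6.6% of all MA9 Kit UMIs, and the neutrophil-like cluster 0 held 10.9%. Between the named granulocytic and monocytic clusters Kit and Flt3 thus had opposite orders, by a small margin in some. Kit was only at 9.5 and 7.1 CPM in the neutrophil-like clusters 8 and 9, where Flt3 was at 0.25 and 1.19 CPM. In the neutrophil-like cluster 23 Kit was at 27.5 and Flt3 at 21.2 CPM. Both genes were high in cluster 5. Sox4 in the monocyte-like cells was at 105 and 131.5 CPM in the Δ/Δ libraries with PBS and with Arac+Dox, against 12.5 and 8.3 in those labelled f/f. T-like cells had 48.8 and 29.5 CPM in the first pair and 0 and 18.0 CPM in the second. Different clusters held the monocyte-like cells: cluster 4 held 835 of those labelled f/f PBS and 1419 of f/f Arac+Dox, while cluster 13 held 1110 of Δ/Δ Arac+Dox and clusters 13, 22 and 4 held 203, 197 and 139 of Δ/Δ PBS. The Sox4 difference rests on which clusters take that name: at a Leiden resolution of 0.5 it was at 26.7 and 12.8 CPM in the monocyte-like cells of the Δ/Δ libraries, against 24.6 and 9.82 in those labelled f/f.

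The HM cells were clustered apart, and most HM clusters came mainly from 1 library. Adgrg1 (143 CPM), Sox4 (124), Cd34 (115), Kit (24.8) and Mecom (8.2) were highest, among clusters of at least 50 cells, in cluster 11, which was stem and progenitor-like with Cdk6, Egfl7, Cd27, Muc13, Meis1, Tal1, Lmo2 and Myct1. It held 222 cells of HM Arac+Dox and 11 of HM PBS. At a Leiden resolution of 0.5 no HM cluster took that name. Its leading genes also included Dntt of lymphoid progenitors and Siglech and Cox6a2 of plasmacytoid dendritic cells. Cluster 11 held 66.9% of all HM UMIs of Angpt1, 66.2% of Adgrg1, 45.1% of Sox4, 41.9% of Cd34 and 41 of the 45 UMIs of Mecom.

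Gata2 in HM was elsewhere. It reached 870 CPM in cluster 18, the 94 mast cell and basophil-like cells, all from HM Arac+Dox, with all 8 markers of the list raised, and 71.8% of HM Gata2 UMIs were there. Angpt1 (62.4 CPM) and Adgrg1 (107 CPM) were high in the same cells, while Cd34 was at 15.96, Kit at 2.9, and Flt3, Hlf and Mecom had no UMI. Flt3 was highest in cluster 5 (36.2 CPM), 490 unnamed cells led by Hpgd, Ctsk and Cdkn2a with monocyte markers, which also held 33.0% of HM Cd34 UMIs and came from both libraries. Inside that cluster Cd34 was at 22.6 CPM in the 217 cells of HM PBS and 115 in the 273 cells of HM Arac+Dox, Flt3 at 8.3 and 53.5, Sox4 at 24.4 and 57.7, and Kit at 7.8 and 2.6. The higher Cd34, Flt3 and Sox4 of HM Arac+Dox were thus also present within a cluster common to both libraries. Mef2c was highest, at 589 CPM, in the B-like cluster 14. For Hlf the highest value, 30.1 CPM in cluster 20 (66 cells with T cell markers and Foxp3), rested on 5 UMIs, and its UMIs were mostly elsewhere: 55 in cluster 11 (32.9% of HM Hlf UMIs) and 29 in the promyelocyte-like cluster 15 (17.4%).

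**Figure D4:**
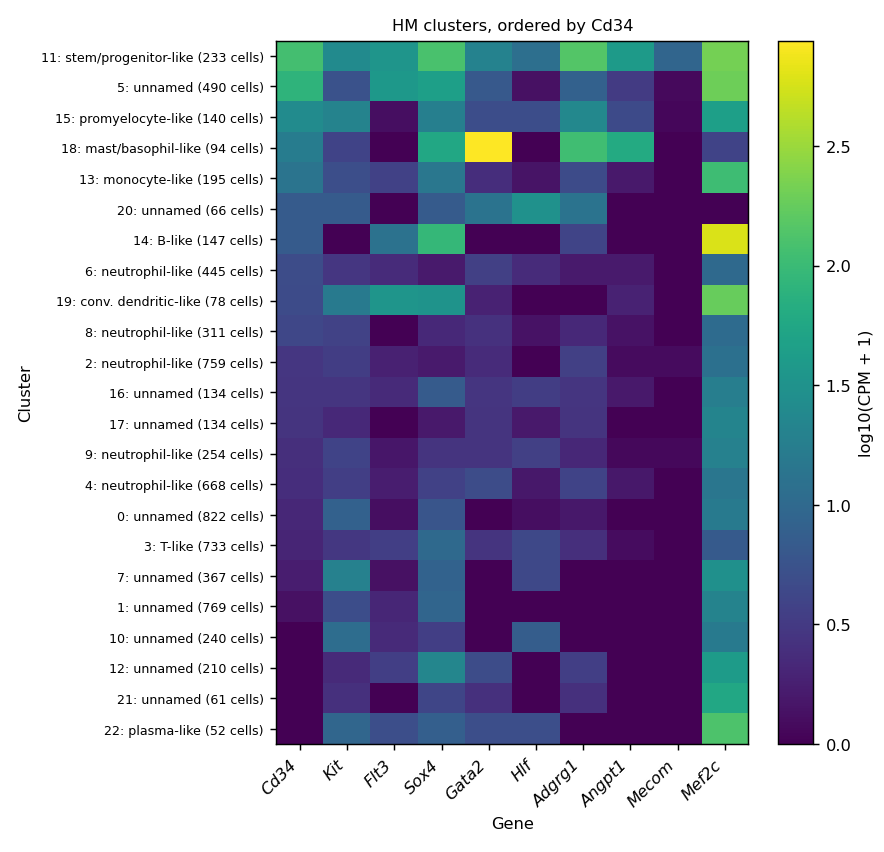
Level of the 10 genes (columns) in the 23 HM clusters of at least 50 cells (rows, ordered by Cd34), as log10 of CPM plus 1. Clusters 11 and 5 are the brightest rows for Cd34, clusters 5, 11 and 19 for Flt3, and clusters 11 and 14 for Sox4. Cluster 18 is the brightest row for Gata2, cluster 14 for Mef2c, and the Mecom column is dark outside cluster 11.

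Whether the genes were found in the same cells was read from thinned cells, for 45 pairs per library. A pair was counted as found together more often when the share of cells with gene B among cells with gene A had a 95% interval above that among cells without gene A. This was so for 37 and 38 of 45 pairs in the libraries labelled MA9 f/f PBS and Δ/Δ PBS, for 16 and 25 in f/f and Δ/Δ Arac+Dox, and for 2 and 13 in HM PBS and HM Arac+Dox. A library with more positive cells can show more such pairs, so these counts are not compared as strengths. In 5 libraries, the most for any pair, 7 pairs were found together more often: Cd34 with Sox4, Cd34 with Adgrg1, Sox4 with Adgrg1, Gata2 with Adgrg1, Gata2 with Angpt1, Adgrg1 with Angpt1, and Mecom with Mef2c. The fifth library is an HM library with few cells: for Adgrg1 with Angpt1 it rested on 1 cell with both in HM PBS, and for Gata2 with Angpt1 on 3 cells. For Mecom with Mef2c it rested on 2 Mecom-positive cells in HM Arac+Dox, where the Mecom share was not above that in T cells. Without those 3 HM values, these pairs were found together more often in the 4 MA9 libraries.

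Gata2 with Adgrg1 shows the size. Among MA9 cells with the label f/f PBS, 32 had both, where the separate shares gave 2.16, and 22.5% of Gata2-positive cells (15.95% to 30.3%) had Adgrg1 against 1.14% of Gata2-negative cells. In that labelled Δ/Δ PBS the values were 24.4% and 5.38%, in f/f Arac+Dox 10.3% and 0.341%, in Δ/Δ Arac+Dox 21.95% and 1.30%, and in HM Arac+Dox 15.9% and 1.26%. The ratio of observed to expected cells had a median over libraries of 11.99 for this pair and 13.2 for Adgrg1 with Angpt1, against 1.16 for Mecom with Mef2c, both of which are in many cells.

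Kit joined some of these genes and not others. Hlf was found in 9.86% of Kit-positive and 1.45% of Kit-negative cells in the MA9 library labelled Δ/Δ PBS, and Angpt1 in 19.7% and 8.62%. Flt3 was found in 1.72% of Kit-positive cells and 6.20% of Kit-negative cells in that labelled Δ/Δ Arac+Dox, the only pair and library with a gene found less often in cells with the other. In the library labelled Δ/Δ PBS Flt3 was instead found more often with Kit, in 19.5% against 14.3%, and in the other 4 libraries the intervals overlapped. Cd34 was found together with Kit more often in 1 library, Δ/Δ PBS, and with Flt3 in 4.

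Counted per cell, at least 1 of the 10 genes was found in 65.4%, 85.1%, 71.7% and 77.5% of thinned MA9 cells, in the usual order, and in 10.0% and 15.3% of HM cells, a difference that includes Mef2c. At least 5 of the 10 were found in 58 MA9 cells (0.730%) with the label f/f PBS, 407 (5.22%) of Δ/Δ PBS, 6 (0.0679%) of f/f Arac+Dox and 43 (0.524%) of Δ/Δ Arac+Dox. No HM cell had 5 or more, among 2389 and 4294 thinned cells.

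**Figure D5:**
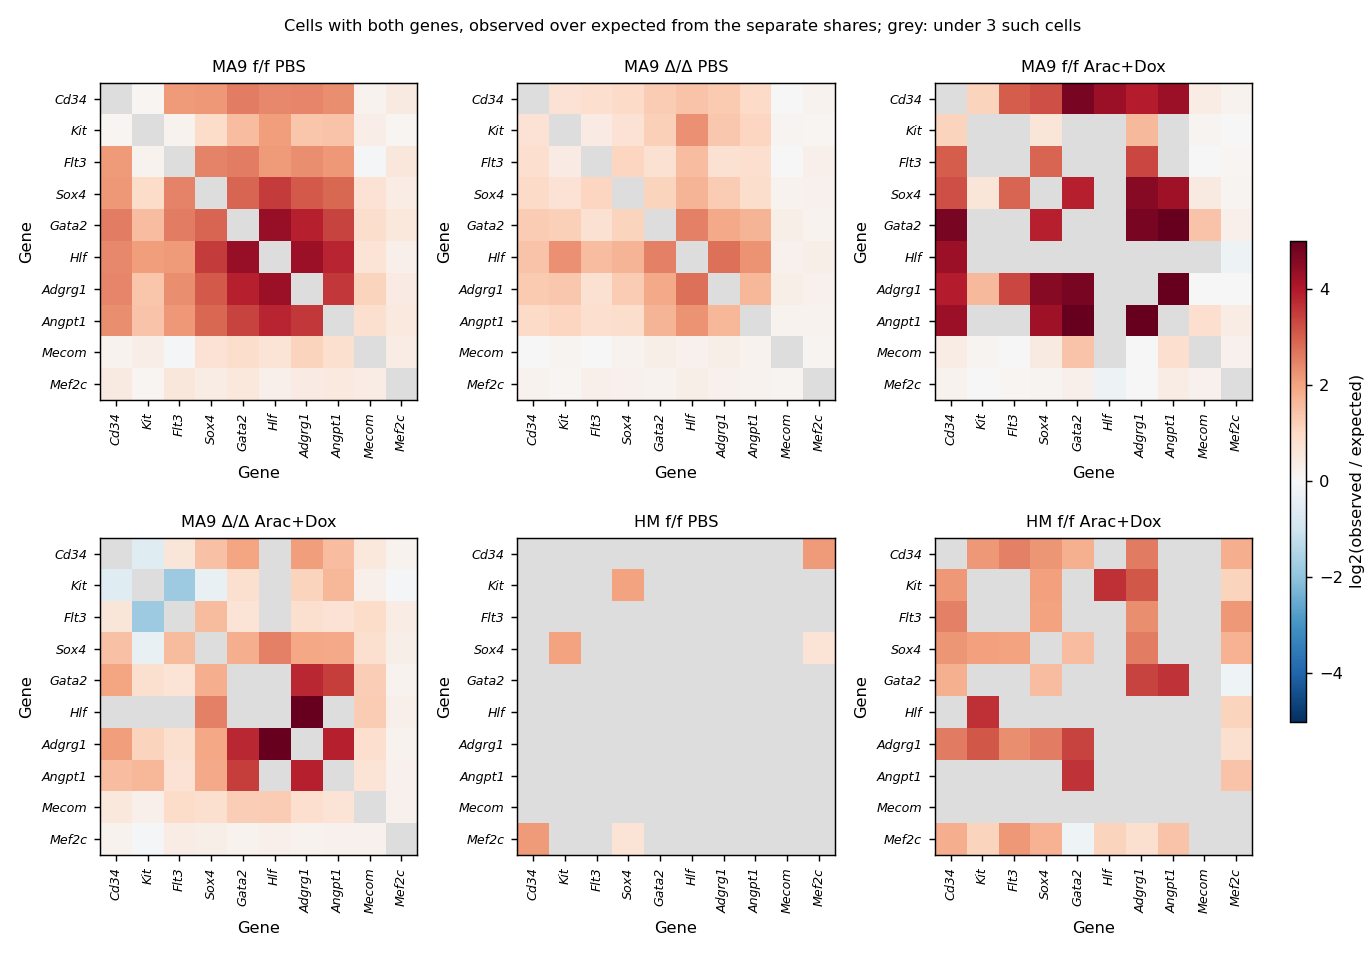
Cells holding both genes of a pair, as log2 of the observed over the expected number, after thinning, in the 6 libraries as labelled. Grey squares had under 3 such cells, and values beyond the scale take its end colour. The block from Sox4 to Angpt1 is red in the 4 MA9 panels except for its grey squares, the Mecom and Mef2c rows are pale in MA9, and Kit with Flt3 is the bluest square of the panel MA9 Δ/Δ Arac+Dox.

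What else the positive cells carried was read from gene lists, as the ratio of a list's summed level in cells with and without a UMI of the gene, in libraries with at least 20 positive cells and at least 3 UMIs of the list due to them at the average rate. Secondary granule genes were lower in the positive cells of every library read for 9 of the 10 genes. For Cd34 the log2 ratio was -4.16, -4.38, -3.02, -3.42 and -1.63 in the 5 libraries read, and for Flt3 its median was -4.03. Mecom and Mef2c had medians of -0.42 and -0.93. Kit was the exception, with 3 libraries higher and 3 lower and a range from -0.76 to 0.88. Primary granule genes, such as Mpo, Elane and Prtn3 of promyelocytes, were higher in Kit-positive cells of all 6 libraries, with log2 ratios of 0.22 to 1.41, and lower in Flt3-positive cells of all 5 read, at -2.49 to -0.43.

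Antigen presentation and mast cell genes separated the rest. Class II genes were higher in Flt3-positive cells of all 5 libraries read (median 2.28, from 0.32 to 3.798) and lower in cells with Cd34, Gata2, Adgrg1, Angpt1 or Hlf in every library read, with medians from -2.71 for Gata2 to -1.68 for Angpt1. Mast cell and basophil markers were higher in Gata2-positive cells of all 4 libraries read, with log2 ratios of 2.67 to 5.94, and in cells with Cd34, Adgrg1 or Angpt1 in all 5, 4 and 3 read. In MA9, where Cpa3 leads cluster 5, this list was at 1222 CPM in Gata2-positive cells of the library labelled f/f PBS and 52.6 in the others. Meis1, which encodes a partner of Hoxa9, could be read in MA9 only. It was higher in cells with Sox4, Mef2c, Mecom, Flt3, Gata2 or Adgrg1 in all 4 MA9 libraries, by medians of 0.53 for Mecom to 0.73 for Adgrg1. In cells with Cd34, Kit or Angpt1 it was higher in 3 of 4. For Hlf only 2 libraries could be read, and Meis1 was higher in both, with a median of 1.10. Cell cycle genes were lower in Angpt1-positive cells of all 4 libraries read, by 0.16 to 1.60 on the log2 scale. They were also lower in Mecom-positive cells of all 4 read, with log2 ratios of only -0.20 to -0.035. They showed no common direction for Mef2c (3 higher and 3 lower).

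The genes most like each member over the 30 MA9 clusters were found by Pearson r of log2(CPM + 1), as a description over clusters that share libraries and depth. Cd34 was most like Flt3 (r = 0.90), Abcb1b and Muc13, with r over 23 HM clusters of 0.50, 0.40 and 0.66. Gata2 was most like Cpa3, a mast cell protease also high in stem-like cells, at 0.90 in MA9 and 0.83 in HM, followed by Cd34 and Angpt1. Adgrg1 and Angpt1 were like each other, at 0.89 in MA9 and 0.87 in HM. Flt3 was most like Il31ra, Gpr183 and Rasa4, Sox4 like Il12a, Aff3 and Zfp260, and Kit like Far2, Rhbdd2 and Tuba8. Mecom was most like Meis1, Hoxa5 and Epha7, at 0.97, 0.96 and 0.96, with 0.62, 0.70 and 0.08 in HM. For Hlf the highest r was 0.65, with Fut8, the lowest of the first-ranked values, and Mef2c was most like Pmaip1, Napsa and Haao.

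Genes around these receptors and factors were read from lists, by count beside the shares of all genes given above. Of 25 genes for ligands, adaptors and signal proteins around Kit and Flt3, 20 were measured in the PBS pair and 21 in the Arac+Dox pair, and 0 reached 2-fold in either, with medians of -0.10 and -0.22. In both MA9 treatment pairs Ptpn6 alone did, and in HM Socs2 (2.98) and Cblb (1.02) were higher and Pik3cd (-1.16) and Cbl (-1.05) lower, of 22, which is near the shares of all genes in that pair (13.5% and 9.85%). In the angiopoietin and niche list, Cxcl12 was higher in the library labelled Δ/Δ PBS than in f/f PBS (22.6 against 1.71 CPM, log2 ratio 3.72) and Itga4 was at 1.07, 2 of 5 measured genes. Among stem cell transcription factors, Tcf7l2 (2.38), Tcf4 (1.09) and Myc (1.06) were higher in the PBS pair, 3 of 25, and Tcf7l2 (3.04) and Myc (1.34) again in the Arac+Dox pair, where 2 of 26 were higher and 3 lower, the latter led by Prdm16 (-3.93) and Hoxb4 (-1.39). Prdm16, the paralogue of Mecom, was at 9.58 CPM in the library labelled f/f Arac+Dox and 0.169 in f/f PBS.

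Other stem cell surface genes moved in both directions. In the PBS pair 5 of 16 were higher and 3 lower, led by Ly6a, the Sca-1 antigen (log2 ratio 2.84), Thy1 (2.04), Il7r (1.66) and Muc13 (1.61). In the Arac+Dox pair 3 of 14 were higher, with Ly6a at 2.62 and Muc13 at 2.36, and Cd9 (-1.62) and Cd33 (-1.56) were the 2 lower ones. With treatment, 0 of 14 were higher and 2 lower in the libraries labelled f/f (Cd93 at -1.03 and Cd27 at -1.01), and Cd27 (-1.53) alone of 16 was lower in those labelled Δ/Δ. In HM 8 of 17 were higher and 0 lower, led by Itga2b (3.70), Thy1 (3.07), Egfl7 (2.90) and Il7r (2.60). Thy1 and Il7r are also T cell genes. T-like cells made up 14.6% of HM Arac+Dox and 1.89% of HM PBS cells, and 4.27% of MA9 cells labelled Δ/Δ PBS and 0.801% of those labelled f/f PBS. Their part in the levels of these genes was not tested.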

How the data were processed

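In all, 6 droplet libraries of bone marrow, 1 per group, were analysed. The files deposited by the authors hold UMI counts of each gene in each barcode, not normalised. Cell Ranger 3.0.2 made the MA9 matrices, per the file headers, and the build was mm10 for all 6 per the submitters' processing notes. The HM headers name no software, and their barcodes have 17 bases against 16, so that step could differ. Groups came from the labels. Of the deposited columns, 0 were left unused.

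Cells were kept at 500 or more genes and up to 10% mitochondrial UMIs, doublets included, because the automatic Scrublet threshold marked 0.5% or more of cells in only 2 libraries. UMIs were summed and scaled to CPM. Log2 ratios carry exact Clopper-Pearson 95% intervals, conditional on the sum of both counts, and counts of 0 were set to 3. Intervals cover counting error only. A gene was read in a comparison if 1 of its libraries had 5 CPM, and was counted from 2-fold. Cells were thinned to 2000 UMIs for shares and pairs. T cells for the background had at least 2 of 5 T cell genes and no Cd79a or Cd79b. The MA9 and HM libraries were clustered apart without the 10 genes (2000 variable genes, 30 components, 15 neighbours, Leiden resolution 1; scanpy 1.11.5, leidenalg 0.10.2, igraph 0.11.9, Python 3.11.15). Clusters were named "-like" when at least 3 markers were 2-fold higher and found in at least 10% of cells, and no other class led their 10 top genes. That rule was settled after the clusters were seen, so class levels rest on rebuilt names. The ratio script was tested on simulated data.

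All 10 genes and Ptpn6 were named, with up to 4 genes of largest change per list and the 3 most like genes per member. Genes, lists and markers were chosen with earlier results of these data known. The number of UMIs per library sets the precision, and no test between groups was possible with 1 library each.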

Additional observations from a re-analysis of the deposited data

Results flagged for a closer look

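For 6 genes the difference between Arac+Dox and PBS had opposite signs in the 2 models: they were higher with Arac+Dox in HM and lower in both MA9 pairs. The difference between the models was not tested, since each group held 1 library. In HM the log2 ratio was 2.55 for Cd34, 1.41 for Flt3, 1.0 for Sox4, 5.09 for Gata2, 3.54 for Adgrg1 and 3.16 for Angpt1. In the MA9 libraries labelled f/f and Δ/Δ it was -2.58 and -2.40 for Cd34, -1.96 and -1.80 for Flt3, -1.52 and -1.45 for Sox4, -2.08 and -2.22 for Gata2, -1.51 and -1.99 for Adgrg1, and -2.85 and -3.48 for Angpt1. The HM values rest on the PBS library of which 22.1% of barcodes were kept. With all barcodes kept, Sox4 (-1.39) and Flt3 (-0.41) were lower with Arac+Dox in HM too, so that 4 of the 6 genes kept the opposite signs. Sox4 in HM was under 2-fold under each of the 3 other scalings, and Gata2 went from 5.09 to 3.25 without the mast cell and basophil-like cells.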

How the results depend on the processing

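Of 33 ratios counted as past 2-fold, 231 values were recomputed under other settings, of which 229 kept their direction and 221 stayed past 2-fold. Without a cell filter the HM comparison had 1 gene at least 2-fold lower, with Flt3 at -0.41 and Sox4 at -1.39, and with each cell given the same weight it also had 1 lower. The cause was not tested. With a minimum of 20 CPM fewer genes could be counted: 1 was higher in the Arac+Dox pair of the genotype labels, 2 were lower with Arac+Dox in the libraries labelled f/f, and 3 were higher in HM. Without the mast cell and basophil-like cells, a choice made after the data were seen, as was leaving out MA9 cluster 5, 3 were higher in HM. The number of pairs found together more often depended on depth: at 1000 UMIs per cell it was 12 in HM PBS and 8 in HM Arac+Dox, unthinned it was 39 in the MA9 library labelled Δ/Δ Arac+Dox, 28 in HM PBS and 44 in HM Arac+Dox, and with doublets removed it was 6 in HM PBS. At a Leiden resolution of 1.5 the number of genes highest in the HM cluster with the most Cd34 went from 5 to 2. The causes were not tested. The other 114 recomputed counts stayed within 1.5 times of their value. Of the recomputed values of single genes, 317 stayed within their counting interval, 331 moved beyond it, most of them shares of cells at another depth, and 2 turned direction. Class names changed as well: at resolution 0.5 promyelocyte-like cells made up 9.25% of cells labelled MA9 f/f PBS instead of 1.29%, and monocyte-like cells 5.68% of those labelled MA9 Δ/Δ Arac+Dox instead of 18.7%. No paired analysis was possible because each group held 1 library. Depth limits the values of Gata2, Angpt1 and Mecom in HM PBS, which rest on 7, 9 and 1 UMIs.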
